A study of Astyanax mexicanus with 12 samples.

Results

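The genes described here are the steady genes of the larval liver of the Mexican tetra, *Astyanax mexicanus*, that is, 200 genes whose level barely moved between cave and surface fish or between ages. They were selected on measured values. The log2 of CPM, counts set relative to the size of their library and scaled by the TMM method (trimmed mean of M values), had to average from 4 to under 10 over 12 libraries. The means of the 4 groups had to lie within 0.4 of each other, and the 200 genes with the smallest standard deviation (SD) over the 12 libraries were kept. Of 27420 gene identifiers 17540 passed the filter on low counts, 5877 of these lay in the range of abundance, and 638 of those had 4 group means within the limit. The 200 steady genes therefore made up 3.40% of the genes of their abundance. All 200 had reads in every library, with a lowest count of 167.

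The groups were Tinaja cavefish at 7 days post-fertilization (dpf), Tinaja at 5 dpf, surface fish at 7 dpf and surface fish at 5 dpf, with 3 libraries each and no agent or transgene named in the labels. Each library held the pooled livers of 40 larvae, so that the spread within a group is one between pools and may in part be technical. Embryos from different parent tanks were mixed before rearing. The 7 dpf larvae had been fasted and the study describes the 5 dpf larvae as fed, so age and nutrition cannot be told apart. The identifiers were matched to no gene name in the reference table used here (0 of 27420), so the steady genes are described by identifier and level. For the same reason hepatocyte markers, markers of other cell types and textbook reference genes were not analysed here.

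Sequencing measures each transcript as a share of a library, and a few abundant transcripts that gain reads lower the share of all others. Scaling methods such as TMM, and the reference genes of quantitative PCR, both rest on genes that are taken not to change. In the liver, whose secreted proteins come from a small number of very abundant mRNAs, classical reference genes such as those of actin, elongation factor and the ribosome are often used for this purpose, and their steadiness has to be checked for each tissue, age and diet.

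The steady genes were genes of moderate abundance. Their mean log2 CPM ran from 4.02 to 8.62, with a median of 5.07, against a median of 5.23 for the 5877 genes of the same abundance. In CPM the mean level was 16.3 to 397, with a median of 33.6. By abundance, 93 of 2458 genes with a mean log2 CPM of 4 to 5 were steady (3.78%), 73 of 1722 from 5 to 6 (4.24%) and 30 of 919 from 6 to 7 (3.26%). Above this the share was lower, with 3 of 435 genes from 7 to 8 (0.690%) and 1 of 343 from 8 to 10 (0.292%). Genes from 8 to 10 were thus nearly absent from the steady genes, and more abundant ones were outside the rule.

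The SD of log2 CPM over the 12 libraries was 0.0631 to 0.2005, with a median of 0.17, and the median over genes of the same abundance was 0.47. As a coefficient of variation of CPM, the steady genes ranged from 4.41% to 15.2%, with a median of 11.8% against 32.5%. The group means of a steady gene differed by a median of 0.25, and by at most 0.39, where the median for the same abundance was 0.84. These values chose the genes and are given as a description. The last gene inside had an SD of 0.2005 and the first outside 0.2006, and 11 genes with an SD as small were left out only because their group means spanned more than 0.4.

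**Figure D1:**
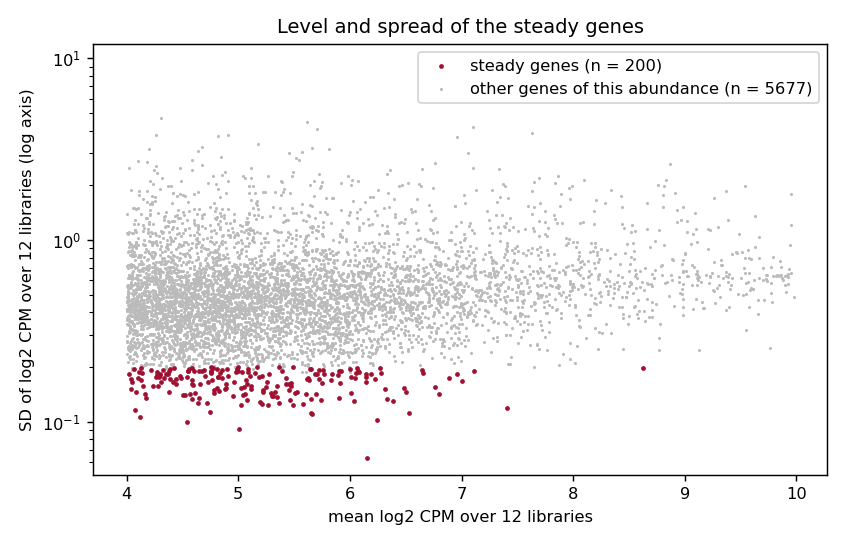
Mean log2 CPM (x axis) and SD of log2 CPM over the 12 libraries (y axis, log scale) of the 200 steady genes (red) and of the other genes of the same abundance (grey), 1 point per gene. The steady genes end at an SD of 0.2005, and only 4 of them lie above a mean of 7.

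Counting noise accounted for a small part of the spread that remained. From the read numbers alone a median SD of 0.06 would arise in the steady genes, which is a median of 15.1% of their variance over libraries, and 1.54% for genes of the same abundance. In 5 of the 200 genes the observed SD was under 1.5 times that of counting. The biological coefficient of variation that edgeR fitted was 17.8% to 23.0% in the steady genes, with a median of 19.6%, and had a median of 27.0% for the same abundance. It borrows strength across genes, which pulls low values up.

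ENSAMXG00000020039 had the smallest SD of all. It was at 71.1, 69.1 and 64.8 CPM in Tinaja at 7 dpf and 71.6, 72.3 and 69.9 CPM in Tinaja at 5 dpf. In surface fish it was at 73.3, 69.5 and 71.8 CPM at 7 dpf and 70.5, 69.4 and 78.2 CPM at 5 dpf. The groups overlapped throughout, and the lowest and highest of the 12 values came from Tinaja 7 dpf replicate 3 and surface 5 dpf replicate 3. The next was ENSAMXG00000033110, at 34.0, 30.8 and 33.6 CPM in Tinaja at 7 dpf and 32.8, 31.1 and 32.5 CPM in Tinaja at 5 dpf. Its values in surface fish were 33.8, 34.9 and 28.8 CPM at 7 dpf and 28.6, 31.2 and 31.9 CPM at 5 dpf. All groups overlapped here as well, and the SD of log2 CPM was 0.0907.

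The most abundant steady gene was ENSAMXG00000019657. It stood at 483, 431 and 389 CPM in Tinaja at 7 dpf, 395, 419 and 417 CPM in Tinaja at 5 dpf, 347, 274 and 397 CPM in surface fish at 7 dpf and 408, 409 and 400.1 CPM in surface fish at 5 dpf. Surface 7 dpf replicate 2 was the lowest library by a wide margin, and the SD of 0.198 was close to the limit. The least abundant was ENSAMXG00000001081, at 14.7, 16.6 and 16.3 CPM in Tinaja at 7 dpf, 17.1, 19.2 and 16.5 CPM in Tinaja at 5 dpf, 19.3, 14.9 and 19.0 CPM in surface fish at 7 dpf and 13.2, 14.2 and 14.4 CPM in surface fish at 5 dpf. Its surface values did not overlap between the ages, being lower in all 3 libraries of 5 dpf, although the group means were within 0.34 on the log2 scale.

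Genes at the limits differed little from each other. ENSAMXG00000032539, the last by SD, was at 45.8, 41.1 and 38.2 CPM in Tinaja at 7 dpf, 33.2, 35.6 and 32.7 CPM in Tinaja at 5 dpf, 37.4, 33.2 and 35.8 CPM in surface fish at 7 dpf and 41.1, 28.1 and 30.1 CPM in surface fish at 5 dpf. ENSAMXG00000020622, the first left out, was at 67.7, 58.3 and 49.96 CPM in Tinaja at 7 dpf, 66.6, 70.3 and 48.9 CPM in Tinaja at 5 dpf, 67.4, 68.9 and 71.4 CPM in surface fish at 7 dpf and 60.02, 61.2 and 76.6 CPM in surface fish at 5 dpf. For ENSAMXG00000032539 surface 5 dpf replicate 1 lay apart from the others of its group, and for ENSAMXG00000020622 each Tinaja group had a low replicate 3.

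The widest group means among the steady genes were those of ENSAMXG00000021657. Its values were 43.4, 47.3 and 48.7 CPM in Tinaja at 7 dpf, 49.7, 61.6 and 51.4 CPM in Tinaja at 5 dpf, 49.6, 50.03 and 50.5 CPM in surface fish at 7 dpf and 61.8, 61.2 and 59.5 CPM in surface fish at 5 dpf. In each morph the ages did not overlap and 7 dpf was the lower. The limits on spread thus admitted a gene whose ages stood apart, and ENSAMXG00000021657 averaged 50.03 ± 0.459 CPM in surface fish at 7 dpf and 60.8 ± 1.16 CPM at 5 dpf (SD, n = 3 each). ENSAMXG00000010694, just past the limit with group means 0.40 apart, was at 53.3, 48.8 and 50.9 CPM in Tinaja at 7 dpf, 43.2, 46.5 and 53.2 CPM in Tinaja at 5 dpf, 44.6, 39.4 and 41.9 CPM in surface fish at 7 dpf and 58.6, 60.1 and 48.2 CPM in surface fish at 5 dpf.

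In edgeR's quasi-likelihood test over all 12 libraries, with an adjusted p under 0.1 as the threshold, none of the 200 genes was called in any comparison. The background was 6.97% of all tested genes for 7 against 5 dpf in Tinaja and 28.4% in surface fish, and 18.3% for Tinaja against surface fish at 7 dpf and 16.0% at 5 dpf. The rule used these contrasts, so nothing is read from the zeros. At an unadjusted p under 0.05 there were 1, 1, 2 and 1 genes in these comparisons. DESeq2 called 0, 0, 1 and 0, where it called 1992, 5624, 4005 and 3649 of all 17540 genes. Log2 fold changes of the steady genes lay between -0.32 and 0.38 with age in Tinaja, -0.37 and 0.35 with age in surface fish, -0.38 and 0.39 between the morphs at 7 dpf, and -0.37 and 0.36 at 5 dpf. Their median size was 0.11 to 0.14, below the median standard error (SE) of 0.18.

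The steady genes did not share a single pattern. The highest group mean was that of Tinaja at 7 dpf for 44 genes, Tinaja at 5 dpf for 31, surface fish at 7 dpf for 56 and surface fish at 5 dpf for 69. The lowest was found in these groups for 43, 61, 51 and 45 genes. Single libraries were less even. Surface 5 dpf replicate 1 held the highest value of 32 genes and Tinaja 7 dpf replicate 1 that of 31. Tinaja 7 dpf replicate 2 held the highest value of 5 genes and the lowest of 25. The SD over genes of the deviation from each gene's mean was 0.13 in surface 5 dpf replicate 2 and 0.20 in Tinaja 7 dpf replicate 1, the extremes of the 12 libraries.

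**Figure D2:**
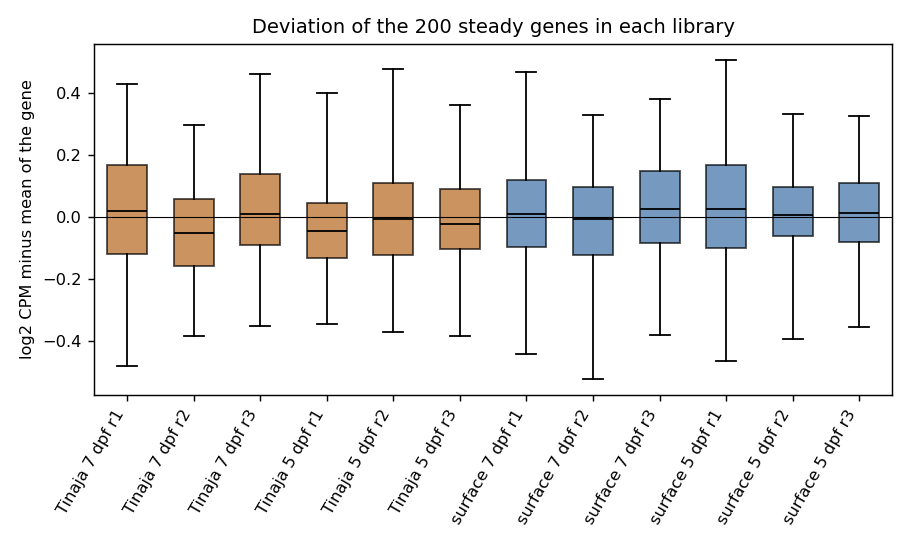
Deviation of the 200 steady genes from their own mean, in log2 CPM (y axis), in each of the 12 libraries (r, replicate; brown, Tinaja; blue, surface fish). Boxes give the median and quartiles, whiskers the full range; the library medians lie between -0.05 and 0.03, and the box is widest in Tinaja 7 dpf replicate 1.

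No single direction held most of the spread that was left. The first principal component of the deviations held 22.6% of their variance, and the second 17.7%. On the first, Tinaja 7 dpf replicate 1 was at 1.80, the surface libraries of 7 dpf at 0.86 to 1.37 and Tinaja 5 dpf replicate 2 at 0.45. All these libraries had a TMM factor below 1 (0.683 to 0.907). The libraries with a factor above 1 (1.07 to 1.55) had scores of -1.46 to -0.13. Tinaja 5 dpf replicate 1, with a factor of 0.931, was at 0.00. The Tinaja groups did not stay together, since Tinaja 7 dpf replicates 2 and 3 were at -1.12 and -1.41. In surface fish the ages were apart, with replicates 1, 2 and 3 of 5 dpf at -0.98, -0.44 and -0.13, below all surface libraries of 7 dpf. The part of library composition in this component was not tested.

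Before any scaling the steady genes took a share of the counts in genes that was far from steady. It was 0.607%, 0.904% and 0.939% in Tinaja at 7 dpf, 0.783%, 0.750% and 1.06% in Tinaja at 5 dpf, 0.793%, 0.696% and 0.636% in surface fish at 7 dpf and 1.35%, 1.07% and 1.08% in surface fish at 5 dpf. In surface fish the ages did not overlap, with 0.708% ± 0.0791 at 7 dpf and 1.17% ± 0.160 at 5 dpf (SD, n = 3 each). In Tinaja they did overlap, with 0.817% ± 0.182 at 7 dpf and 0.866% ± 0.172 at 5 dpf. This share follows from TMM factors of 0.683 to 1.55, which entered the choice, and is given without a test. The top 100 genes by count took 42.6% ± 2.15 in surface fish at 7 dpf and 33.5% ± 2.53 at 5 dpf. Total counts in genes ran from 10589889 to 23586408 reads per library. In surface fish these totals did not overlap between the ages either. They were 23586408, 18472932 and 18537910 at 7 dpf and 10589889, 12492282 and 12438386 at 5 dpf. In Tinaja the ages overlapped. The smallest total went with the largest share of steady genes in both Tinaja groups and in surface fish at 5 dpf. In surface fish at 7 dpf the largest total did. The part of depth in the share was not tested.

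A measure the rule did not use, the share of all reads in the count table that fell outside annotated genes, moved with the share of the steady genes. Reads outside genes made up 25.4% ± 2.14 in Tinaja at 7 dpf and 24.0% ± 5.26 at 5 dpf, and 21.7% ± 0.924 in surface fish at 7 dpf and 30.7% ± 3.59 at 5 dpf (SD, n = 3 each). Exact two-sided permutation tests gave p = 0.7 with age in Tinaja, 0.1 with age in surface fish, 0.1 between the morphs at 7 dpf and 0.2 at 5 dpf, or 0.7, 0.2, 0.2 and 0.267 after adjustment for the 4 comparisons. The smallest p that 3 against 3 libraries allow is 0.1. Over the 12 libraries both shares correlated at Pearson's r = 0.931 and Spearman's rho = 0.832, given as a description with no test, since the share of the steady genes follows from the choice and surface fish at 5 dpf were the highest group in both. Without surface 5 dpf replicates 1 and 2, the farthest from the median, r was 0.861 over 10 libraries. Within groups of 3 no r is given. The library with the most reads outside genes also had the largest share of steady genes in 4 of 4 groups, and the full order was the same in 3 of 4. Both shares draw on the same libraries and are divided by totals that hold the same counts in genes. More reads in abundant genes lower both by arithmetic, so neither share is an independent check of the other. How far this accounts for their correlation was not tested.

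**Figure D3:**
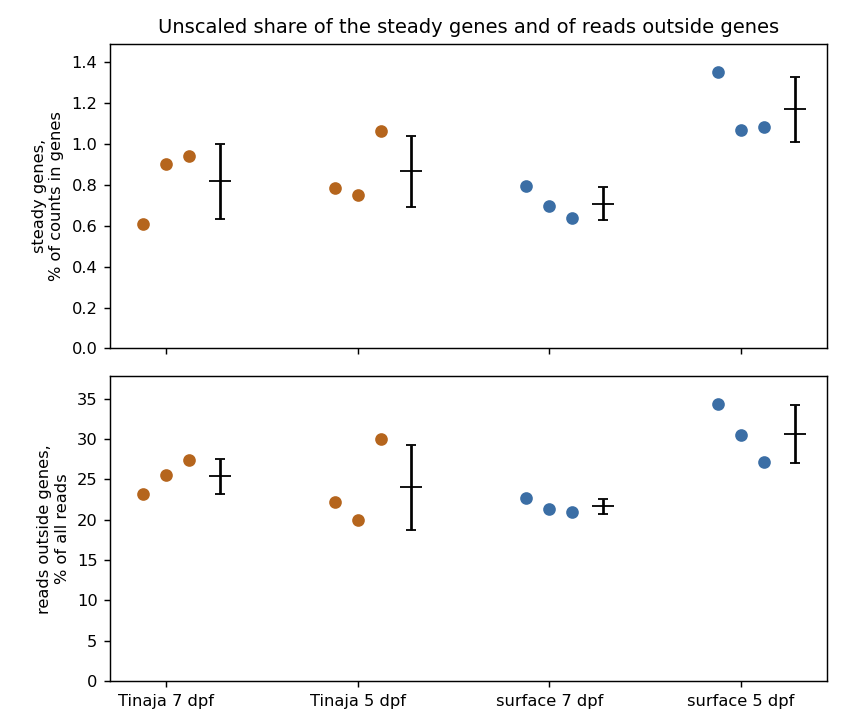
Share of the counts in genes taken by the 200 steady genes before scaling (upper panel, %) and share of all reads outside annotated genes (lower panel, %) in the 12 libraries, 1 point each, with the mean and SD of each group in black. Surface fish at 5 dpf lie highest in both panels, at 1.17% and 30.7% on average.

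Steadiness therefore depended on the scale. With the size factors of DESeq2 all 200 genes kept their group means within 0.4 and 191 were chosen again. With upper-quartile factors 195 stayed within the limit and 155 were chosen again. With library totals 2 stayed within the limit and 1 was chosen again. On that scale all 200 genes were lower in surface fish at 7 dpf than at 5 dpf, by 0.37 to 1.09 on the log2 scale, with a median of -0.73. All 200 were also lower in Tinaja than in surface fish at 5 dpf, with a median of -0.45, and 30 were lower at 7 dpf, with a median of 0.18. With age in Tinaja the median was -0.10 and 145 of 200 were lower. Library totals moved the median of all 17540 tested genes in the same way, to -0.75 with age in surface fish, -0.09 with age in Tinaja, 0.16 between the morphs at 7 dpf and -0.41 at 5 dpf. The median of the steady genes stayed within 0.05 of that median in each comparison, while single genes lay farther from it. Which scale is that of RNA per liver cannot be told apart from shares of reads, nor can fewer cells of a type and less RNA per cell in these bulk samples.

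**Figure D4:**
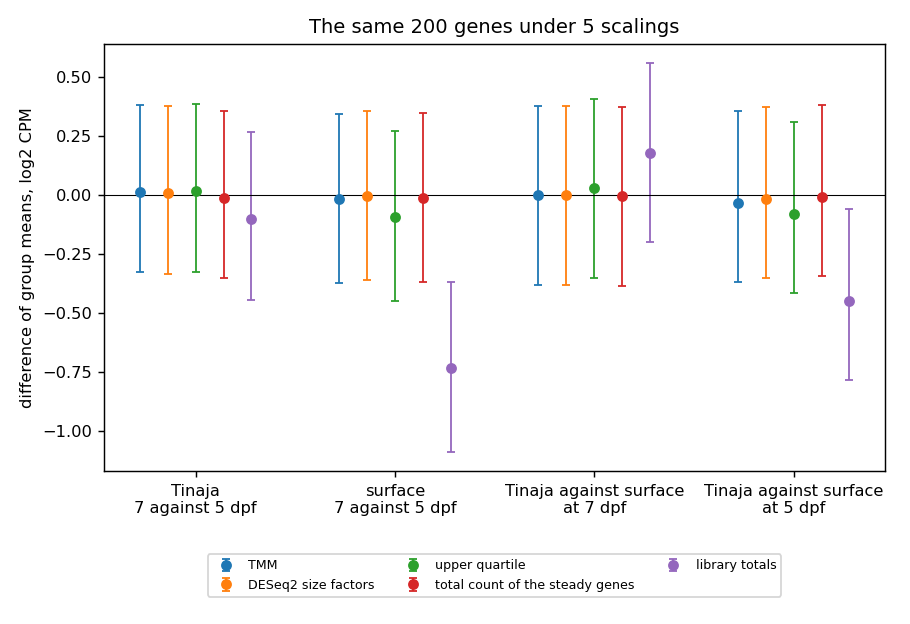
Difference of group means in log2 CPM (y axis) for the same 200 genes in the 4 comparisons (x axis) under 5 scalings. Points are medians and bars span the lowest to the highest gene; with library totals the median was -0.73 with age in surface fish and -0.45 between the morphs at 5 dpf, while all other medians lie between -0.10 and 0.18.

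As a reference for scaling, the total count of the 200 genes gave factors close to those of TMM, which their choice made likely. The ratio of both factors was between -0.04 and 0.04 on the log2 scale in all 12 libraries. Upper-quartile factors were farther from TMM, at -0.07 to 0.10, and the size factors of DESeq2 were closer, at -0.02 to 0.03. With the factors of the steady genes edgeR called 1233 genes with age in Tinaja, against 1223 with TMM, and 5003 in surface fish, against 4989. Between the morphs the counts were 3219 and 3210 at 7 dpf and 2845 and 2804 at 5 dpf, with the steady genes and TMM. The genes called by both scalings in the same direction were 97.5%, 99.0%, 98.8% and 98.0% of the TMM calls. The share of higher genes was 29.8% against 32.3% with age in Tinaja and 57.4% against 54.9% between the morphs at 5 dpf, and moved by less in the other comparisons.

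A less circular view came from choosing 200 steady genes by the same rule in 11 libraries and measuring them in the library left out. The other libraries of its group stayed in the choice, and their mean had to lie within 0.4 of the other group means. This view thus concerns spread between replicates and is no test of steadiness across morph or age. The deviation of the chosen genes in the left-out library had an SD over genes of 0.16 to 0.33. Its median over the 12 libraries was 0.22, where all genes of the same abundance had a median of 0.75. These deviations were taken from the mean of the other 11 libraries. For the 200 genes chosen with all libraries the SD over genes within a library was 0.13 to 0.20. Those deviations were taken from the mean of all 12, which includes the library itself and makes them smaller, so the ranges are not on the same measure. In each left-out library the SD of the chosen genes was below that of other genes of their abundance. The share of chosen genes within 0.4 of their mean was 99.0% in surface 5 dpf replicate 2 and 97.5% in Tinaja 5 dpf replicate 1, the highest, against 63.5% and 66.6% of all genes of that abundance. It was lowest in Tinaja 7 dpf replicate 1 and surface 5 dpf replicate 1, at 79.0% and 80.5%, against 47.8% and 42.1%. Without these same libraries the choice itself changed most, and 156 and 160 of the 200 genes were chosen again.

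The number of reference genes mattered when they were few. The mean deviation in the left-out library of the 3 steadiest genes of the other 11 ran from -0.25 in Tinaja 7 dpf replicate 3 to 0.20 in Tinaja 5 dpf replicate 2, and was over 0.1 in size in 7 of 12 libraries. With 10 genes it ran from -0.10 to 0.08, with 50 from -0.08 to 0.09 and with 200 from -0.06 to 0.07, and did not pass 0.1 in any library. The TMM factors of all 12 libraries served as the scale in this count.

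Steadiness between the ages was then chosen in the 6 libraries of 1 morph and tested in the 6 of the other, each with its own TMM factors. The 200 genes chosen in surface fish had a median size of log2 fold change of 0.21 with age in Tinaja, against 0.36 for all genes of the same abundance, and 81.5% of them were within 0.4, against 54.0%. None was called by edgeR, where 2.23% of all 16241 genes and also 2.23% of the 6005 genes of the same abundance were called. At an unadjusted p under 0.05 there were 14 of 200, or 7.00% against 17.7% for the same abundance, and DESeq2 called 1, where it called 8.81% of all genes. The background was low, so the count of 0 says little by itself. The 200 genes chosen in Tinaja had a median size of 0.24 with age in surface fish, against 0.54, and 69.0% were within 0.4, against 38.9%. In both tests the chosen genes also had the smaller median SE, 0.24 against 0.31 in Tinaja and 0.19 against 0.23 in surface fish. The part of this in their smaller fold changes was not tested. In surface fish edgeR called 43 of the 200 genes chosen in Tinaja, or 21.5%, of which 27 rose and 16 fell. The background was 32.9% of all 16281 genes and 41.9% of the 6322 of the same abundance. Large changes were rare, with 3 of 200 beyond a log2 fold change of 1, against 24.2% of genes of the same abundance. With library totals in the test alone 133 of 200 were called, 132 of them lower. This was a larger share than the 52.3% of all genes, the reverse of the order with TMM. The choice stayed on TMM, and genes level on TMM shift with library totals, so the reversed order carries no information about them. When the share of reads outside genes entered the model, 0 were called, but the background over all genes was then 0.0369%. At an unadjusted p under 0.05 there were 8, for which no share over all genes is given. Reads outside genes did not overlap between the ages in surface fish, so this model can hardly tell them apart from age. Leaving out single libraries gave 21 (surface 5 dpf replicate 2, 21.0% of all genes) to 60 (Tinaja 5 dpf replicate 3 left out of the choice, 32.9% of all genes), with 25, 27 and 28 without surface 7 dpf replicates 3, 1 and 2 (26.5%, 26.9% and 26.3% of all genes).

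Of the genes that rose, ENSAMXG00000019689 had the smallest adjusted p. It was at 71.5, 42.8 and 64.4 CPM in surface fish at 7 dpf and 16.4, 21.2 and 25.2 CPM at 5 dpf. In Tinaja it was at 24.96, 24.1 and 25.1 CPM at 7 dpf and 21.8, 27.1 and 23.8 CPM at 5 dpf. All 3 surface libraries of 7 dpf lay above all others, and the rise was 1.51 on the log2 scale (SE 0.25, edgeR adjusted p = 0.00729, over alternatives from 5.32e-06 to 0.489). Of those that fell it was ENSAMXG00000029853, at 37.6, 54.5 and 48.9 CPM in surface fish at 7 dpf and 83.1, 104 and 98.6 CPM at 5 dpf. In Tinaja it was at 37.1, 39.2 and 34.1 CPM at 7 dpf and 41.2, 44.1 and 39.5 CPM at 5 dpf, so that surface fish at 5 dpf stood apart. The fall had a log2 value of -1.02 (SE 0.21, edgeR adjusted p = 0.0131, over alternatives from 0.000260 to 0.271). Neither gene passed once reads outside genes entered the model (log2 fold changes of 1.01 and -1.39). That share did not overlap between the ages in surface fish, so nothing is read from this. Their steadiness in Tinaja was set by the choice, and whether these age effects differ between the morphs was not tested for these genes.

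Steadiness between the morphs was likewise chosen at 1 age and tested at the other. The 200 genes chosen at 5 dpf had a median size of log2 fold change of 0.22 between Tinaja and surface fish at 7 dpf, against 0.41 for all genes of the same abundance, and 77.5% were within 0.4, against 49.5%. Of these, 4 were called (2.00%), 1 higher and 3 lower in Tinaja, against 9.38% of all 15942 genes and 9.76% of the 5607 of the same abundance. Without Tinaja 7 dpf replicate 1, however, 41 were called, 35 of them lower, while the background over all genes was 30.0%. With Tinaja 7 dpf replicate 2 or 3 left out the count was 1 (3.10% and 2.43% of all genes). Without surface 7 dpf replicate 1, 2 or 3 it was 2 (3.01%, 5.03% and 5.33% of all genes). DESeq2 called 11, where it called 16.9% of all genes. With reads outside genes in the model 0 passed in edgeR, where 0.759% of all genes were called. At an unadjusted p under 0.05 there were 7, for which no share over all genes is given. Reads outside genes did not overlap between the morphs at 7 dpf, so this model can hardly tell them apart from morph. The 200 genes chosen at 7 dpf had a median size of 0.27 at 5 dpf, against 0.34, the smallest gap of the 4 tests, and 71.5% were within 0.4, against 56.2%. The median SE of the chosen genes was again smaller, 0.23 against 0.28 at 7 dpf and 0.20 against 0.26 at 5 dpf. Its part in the smaller fold changes was not tested. EdgeR called 17 (8.5%), 15 higher and 2 lower in Tinaja, against 18.5% of all 16256 genes and 17.7% of the 6758 of the same abundance. With library totals in the test alone the split turned round, with 2 higher and 16 lower, while 20.9% of all genes were called. The split over all genes turned round too in the fits over 12 libraries. There 1538 genes were higher and 1266 lower with TMM, against 708 and 2519 with library totals. Nothing about the chosen genes is therefore read from the turn. Among the chosen genes the count was 29 in DESeq2 (22.6% of all genes) and 3 with reads outside genes in the model (11.7% of all genes). It was 3, 7 and 29 without Tinaja 5 dpf replicates 1, 2 and 3 (8.77%, 14.6% and 21.5% of all genes). It was 8, 5 and 3 without surface 5 dpf replicates 1, 2 and 3 (11.5%, 13.04% and 11.3% of all genes). It was 30 where the genes were chosen without Tinaja 7 dpf replicate 1, with the background as before.

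**Figure D5:**
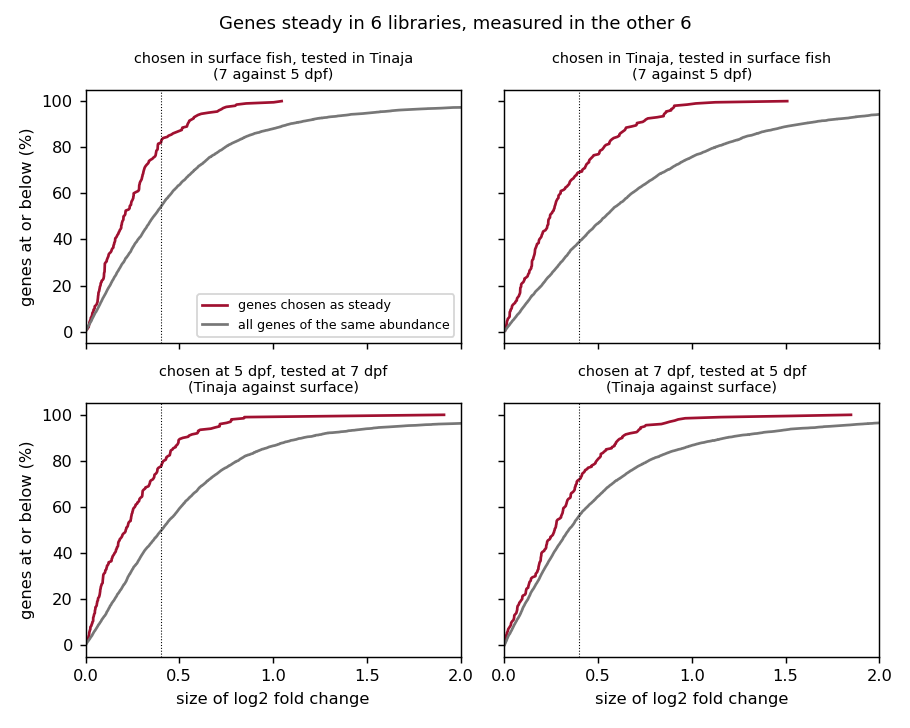
Size of the log2 fold change (x axis, shown up to 2) and percentage of genes at or below it (y axis) in 6 libraries, for 200 genes chosen as steady in the other 6 (red) and all genes of the same abundance (grey). The dotted line marks 0.4, below which lie 81.5%, 69.0%, 77.5% and 71.5% of the chosen genes in the panels, read from left to right and top to bottom.

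Among the 4 genes called at 7 dpf, 2 are shown, picked after their values were seen as the most significant in each direction. ENSAMXG00000037453 was at 75.4, 86.1 and 70.1 CPM in Tinaja and 36.3, 28.5 and 25.8 CPM in surface fish at 7 dpf, but at 112, 114 and 112 CPM in Tinaja and 97.9, 91.5 and 108 CPM in surface fish at 5 dpf. The choice required the morphs to be close at 5 dpf. At 7 dpf they were separate, by 1.37 on the log2 scale (SE 0.23, edgeR adjusted p = 0.0232, over alternatives from 2.09e-05 to 0.253). ENSAMXG00000029815 was at 29.0, 34.2 and 43.9 CPM in Tinaja and 92.5, 216 and 102 CPM in surface fish at 7 dpf, where the difference in log2 was -1.91 (SE 0.39, edgeR adjusted p = 0.0414, over alternatives from 0.000101 to 0.335). At 5 dpf it was at 26.5, 27.1 and 25.2 CPM in Tinaja and 28.6, 27.9 and 30.3 CPM in surface fish, so that the surface libraries of 7 dpf alone were high. It did not pass without Tinaja 7 dpf replicate 2 or 3 (edgeR adjusted p = 0.141 and 0.107), although the log2 fold changes of -1.86 and -2.09 were about as large. Neither gene passed with reads outside genes in the model, where ENSAMXG00000037453 had a log2 fold change of 1.19 and ENSAMXG00000029815 of -2.26. Reads outside genes did not overlap between the morphs at 7 dpf, so nothing is read from this. Both genes were chosen as steady at 5 dpf, and whether the morph difference changes with age was not tested for them.

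Lists of steady genes from separate libraries overlapped in part. The choices in surface fish and in Tinaja shared 30 genes, 15.0% of each list, and the choices at 5 and 7 dpf shared 25, or 12.5% of each. For scale, 200 genes were 3.40% of the 5877 genes of the same abundance over all 12 libraries. Of the 200 steady genes of all 12 libraries 71 were in the surface choice, 67 in the Tinaja choice, 70 in that of 5 dpf and 64 in that of 7 dpf. Of these 200, 46 were in none of the 4 lists, 70 in 1, 57 in 2, 20 in 3 and 7 in all 4. The 7 genes were the only ones common to the 4 lists, which together named 627 genes. These lists share libraries with the full choice, so their overlap with it is a description.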

How the data were processed

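RNA of pooled larval livers was sequenced in 12 libraries. The authors prepared stranded polyA libraries, aligned reads with STAR 2.7.3a to astMex_2.0 with Ensembl gene models and named RSEM 1.3.0 for abundance. They deposited whole-number read counts for 27420 identifiers and 4 summary rows of STAR, which stayed out of library sizes and tests. No source used here states which strand was counted, so overlapping genes, and near-identical copies that lose reads mapping to many places, are uncertain. Depth limits precision as given by the counting SD. Replicates differed by a chi-square per gene of 25.8 to 141, and none was treated as a duplicate.

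EdgeR 4.0.16 in R 4.3.3 gave filterByExpr, TMM factors, log2 CPM with a prior count of 2, and robust quasi-likelihood tests with Benjamini-Hochberg adjustment over all genes tested (8 residual degrees of freedom over 12 libraries, 4 over 6). Genes of the same abundance are those with a log2 CPM from 4 to under 10. Alternatives were DESeq2 1.42.0 and its size factors, library totals, upper-quartile factors, no filter, a replicate block, reads outside genes as a covariate and leaving out each library. In the tests across morphs and ages, other scalings, filters, tools or models changed the test alone, and the choice stayed on TMM. Permutation tests used scipy 1.17.1. The steady genes, lists and tests were chosen with earlier results of these data known. Genes were named as the extremes by SD, mean and range of group means, the genes next to each limit, and the gene of smallest adjusted p in each direction in the tests across morphs. Lists of pathways and markers were not used, since no identifier matched a symbol.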

Additional observations from a re-analysis of the deposited data

How the results depend on the processing

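The choice of the 200 steady genes depended most on the scale, with 1 gene chosen again and 2 within the limit under library totals. Leaving out 1 library each, 156 to 191 were chosen again. Of the genes steady in surface fish, 0 passed with age in Tinaja in edgeR with all libraries or without any 1 of them. In 5 of the 6 fits that left out a Tinaja library, however, at most 0.0651% of all genes passed. DESeq2 called 1 of these genes, where it called 8.81% of all genes. Of the genes steady in Tinaja on TMM, 133 passed with age in surface fish under library totals in the test alone (52.3% of all genes). With reads outside genes as a covariate 0 passed (0.0369% of all genes). Without single libraries 21 to 60 passed (21.0% and 32.9% of all genes). Of those steady at 5 dpf, 11 differed between the morphs at 7 dpf in DESeq2 (16.9% of all genes). With the covariate 0 differed (0.759%). Without single libraries 1 to 41 differed (3.10% and 2.43% of all genes for 1, 30.0% for 41). Of those steady at 7 dpf, 29 differed at 5 dpf in DESeq2 (22.6% of all genes) and 3 with the covariate (11.7%). Without single libraries 3 to 30 differed (8.77% and 11.3% of all genes for 3, 18.5% for 30). The shares over all genes moved between these fits as well. Over all genes, age in Tinaja gave 1992 calls in DESeq2 and 204 to 1503 without single libraries. Age in surface fish gave 8128 under library totals (849 higher, against 2468 of 4989 with TMM), 1521 with the covariate and 3062 to 5898 without single libraries. The morphs differed in 1921 genes with the covariate and 1168 to 5277 without single libraries at 7 dpf, and in 1301 and 1238 to 3532 at 5 dpf. Reads outside genes did not overlap between the ages in surface fish or between the morphs at 7 dpf. The covariate can hardly be told apart from these 2 contrasts. The causes of these shifts were not tested.

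Same-numbered libraries of different groups correlated in their deviations from group means at -0.28 to 0.41, and others at -0.37 to 0.38. Between 5 and 7 dpf, same-numbered libraries were at 0.18, 0.04 and 0.41 in Tinaja and 0.24, -0.13 and -0.07 in surface fish. Whether replicate numbers pair the libraries cannot be told from these values. With a replicate block the 4 tests of chosen genes called 2, 34, 2 and 4 genes, in the order given above, against 0, 43, 4 and 17 without it. Over all genes these fits called 6.79%, 31.3%, 4.89% and 11.4% with the block, against 2.23%, 32.9%, 9.38% and 18.5% without it, and age in Tinaja called 731 genes in all. The remaining alternatives kept each of these counts within 1.5 times its value.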

Other observations

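Choosing by the same rule on the scale of library totals gave a different set of 200 genes, of which 1 was among the steady genes. Its candidates numbered 470, its genes had a median mean log2 CPM of 5.28, and their median SD on that scale was 0.19. On the TMM scale these genes had a median log2 fold change of 0.68 with age in surface fish, where 133 rose and 0 fell in edgeR (adjusted p under 0.1), against 28.4% of all genes called. With age in Tinaja the median was 0.08 and edgeR called 0, against 6.97% of all genes, with 1 gene at an unadjusted p under 0.05 and 0 called by DESeq2. Between Tinaja and surface fish the median was -0.24 at 7 dpf, with 0 higher and 3 lower against 18.3% of all genes called, and 0.37 at 5 dpf, with 17 higher and 0 lower against 16.0%. The genes were chosen on the same libraries, so these counts are a description. With age in surface fish the median of all genes was -0.75 on library totals and -0.06 on TMM. Genes chosen as level on library totals are thus shifted upward on TMM by the change of scale, and nothing is read from their direction or number.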
